A study of Mus musculus with 9 samples.

Results

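Secretoglobins are small secreted proteins that pair through disulfide bonds into dimers around a hydrophobic pocket. The family was followed here in the lacrimal gland, the gland that makes the watery part of the tears, at 3 ages. Its members were all genes of the count table whose GENCODE M21 symbol begins with Scgb and a digit, leaving out pseudogenes. Of 54232 genes, 69 had such a symbol, 35 of them were pseudogenes, and 34 were members. They comprised 15 Scgb1b genes, 14 Scgb2b genes and 5 others (Scgb1a1, Scgb1c1, Scgb2a2, Scgb3a1 and Scgb3a2). The 9 libraries came from female C57BL/6J mice with no genetic change named in the labels, fed freely under 12 h of light and 12 h of dark. Each age, 2, 12 or 24 months, had 3 libraries, and the titles of the youngest call them 8W. The labels do not say whether a library is 1 mouse or a pool, so each p-value reflects the spread among libraries, which may be technical.

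The Scgb1b and Scgb2b genes encode the subunits of mouse androgen-binding protein. An alpha chain from a Scgb1b gene joins a beta-gamma chain from a Scgb2b gene, and the dimers are secreted into saliva and tears, where mice are thought to use them as social signals. The 2 kinds of gene lie side by side as pairs in a cluster that grew by repeated duplication in the mouse lineage. Of the other members, Scgb1a1 is the club cell protein of the airways, Scgb3a1 and Scgb3a2 are airway secretoglobins, and the human counterpart of Scgb2a2 is mammaglobin A, known from the breast.

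All 29 Scgb1b and Scgb2b genes lay in one cluster on chromosome 7 (GRCm38, 31290508 to 34100837). They formed 12 pairs that share a number, such as Scgb1b7 with Scgb2b7, and both members of each pair are on opposite strands. The gap between partners was 4486 bp for pair 24, 6887 to 7540 bp for 7 pairs, and 11694 to 13519 bp for 3 pairs. In pair 2 the gene models overlap, because an alternative first exon of Scgb2b2 covers the last exon of Scgb1b2 on the other strand. The strand setting of the counting is not given in the sources used here, so reads of that overlap cannot be assigned with certainty. The cluster is described below in 3 stretches, whose limits were set with the values known. The proximal stretch (31290508 to 31376916) holds pairs 2 and 3. The middle stretch (31703779 to 33520458) holds the 19 genes numbered 7 to 21 and Scgb1b29. The distal stretch (33737190 to 34100837) holds pairs 24 and 27, Scgb2b26 and Scgb1b30.

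The promoters of 6 members are shown because 4 of them share a motif in nearly the same place. The genes behind them changed differently with age, and whether the motif bears on this was not tested. Each line gives the 250 bases before the gene start in RefSeq (GRCm38.p6), read 5′ to 3′ toward the gene. Capitals mark TGTTCT, a half-site bound by steroid hormone receptors such as those of glucocorticoids and progesterone, and the TATA box TATAAA, each on either strand.
Scgb2b7 (chr7:31705755-31706004, minus strand): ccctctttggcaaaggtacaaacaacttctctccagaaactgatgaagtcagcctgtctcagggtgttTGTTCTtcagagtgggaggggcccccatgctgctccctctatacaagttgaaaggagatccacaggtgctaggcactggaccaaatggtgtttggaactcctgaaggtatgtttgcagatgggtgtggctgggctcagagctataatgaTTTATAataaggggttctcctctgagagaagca
Scgb2b20 (chr7:33366320-33366569, minus strand): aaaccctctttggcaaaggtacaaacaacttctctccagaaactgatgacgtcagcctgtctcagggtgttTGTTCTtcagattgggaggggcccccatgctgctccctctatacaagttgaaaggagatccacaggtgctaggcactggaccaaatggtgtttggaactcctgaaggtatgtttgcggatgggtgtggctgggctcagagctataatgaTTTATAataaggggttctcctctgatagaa
Scgb2b24 (chr7:33739296-33739545, minus strand): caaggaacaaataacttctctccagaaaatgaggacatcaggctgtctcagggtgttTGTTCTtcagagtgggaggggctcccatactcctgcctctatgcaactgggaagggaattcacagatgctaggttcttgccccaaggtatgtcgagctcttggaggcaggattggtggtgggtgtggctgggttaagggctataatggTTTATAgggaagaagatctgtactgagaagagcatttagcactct
Scgb2b2 (chr7:31302519-31302768, plus strand): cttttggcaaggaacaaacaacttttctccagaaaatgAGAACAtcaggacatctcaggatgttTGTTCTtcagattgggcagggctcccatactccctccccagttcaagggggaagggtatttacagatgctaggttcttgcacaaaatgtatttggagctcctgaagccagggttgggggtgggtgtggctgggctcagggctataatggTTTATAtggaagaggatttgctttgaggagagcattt
Scgb1b2 (chr7:31291817-31292066, minus strand): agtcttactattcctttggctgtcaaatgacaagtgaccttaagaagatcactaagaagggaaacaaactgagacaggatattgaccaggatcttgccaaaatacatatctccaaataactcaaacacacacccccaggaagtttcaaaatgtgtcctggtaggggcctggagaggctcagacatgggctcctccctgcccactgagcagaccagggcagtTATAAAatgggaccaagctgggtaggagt
Scgb2a2 (chr19:9847308-9847557, plus strand): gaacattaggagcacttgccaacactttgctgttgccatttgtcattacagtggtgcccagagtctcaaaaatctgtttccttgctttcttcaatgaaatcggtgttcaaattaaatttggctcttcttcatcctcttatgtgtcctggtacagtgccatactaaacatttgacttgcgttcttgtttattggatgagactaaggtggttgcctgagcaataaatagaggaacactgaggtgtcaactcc
The first 3 belong to genes that were low at 12 months, Scgb2b2 and Scgb1b2 to the pair that was low at 24 months, and Scgb2a2 to the gene that was high at 2 months alone.

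The libraries held 40516863 to 42573877 counts, and 14944 genes passed the filter on low counts. All 7 lacrimal acinar markers, among them Aqp5, Ltf and Lpo, were present at every age, with a summed level of 16968 to 19300 CPM (counts per 1000000 counts of the library) at 2 months, 17463 to 19065 at 12 months and 18883 to 23299 at 24 months. Most of this sum came from the most abundant marker. Of the 7, 0 were higher and 1 lower for 12 against 2 months (edgeR, adjusted p under 0.05). For 24 against 2 months 1 was higher and 1 lower, and for 24 against 12 months 1 was higher and 0 lower. Of all tested genes 7.93, 17.4 and 4.39% were called in these comparisons. Of 14 salivary gland markers, 3 (Smgc, Smr2 and Klk1b22) were at 0 in every library, and without Car6, which the lacrimal gland also makes, the rest summed to 0.548 to 736 CPM at 2 months, 2.14 to 437 at 12 months and 1.41 to 271 at 24 months. The salivary gene Bpifa2 stood apart in 1 library of each age, with 8, 1829 and 22857 counts in replicates 1 to 3 of 2 months, 178, 14351 and 32 counts in those of 12 months, and 201, 8709 and 8 counts in those of 24 months. Markers of fat cells summed to 0.969 to 1.60 CPM at 2 months, 10.1 to 37.5 at 12 months and 10.9 to 29.7 at 24 months. Markers of skeletal muscle summed to 0.310 to 0.588 CPM at 2 months, 1.06 to 38.7 at 12 months and 0.543 to 0.826 at 24 months. The part of these tissues in the results below was not tested beyond leaving out the 3 libraries with the most Bpifa2 (2-month replicate 3, 12-month replicate 2 and 24-month replicate 2).

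The family made up a large part of the gland's messenger RNA at every age. It took 16.2, 17.4 and 17.4% of all counts in the 2-month libraries, 15.3, 13.0 and 15.8% in the 12-month libraries, and 14.9, 17.6 and 11.7% in the 24-month libraries. The 24-month libraries spanned the values of both other ages, and the 12-month libraries lay below the 2-month ones. The means were 17.0 ± 0.715% at 2 months, 14.7 ± 1.49% at 12 months and 14.7 ± 2.94% at 24 months (SD, n = 3 libraries each). Of the family's counts over all libraries, Scgb1b2 took 39.6%, Scgb2b2 26.8% and Scgb2b24 24.7%. These 3 genes ranked 4th, 5th and 7th by mean count among all genes of the table. Together they held 90.9 to 97.3% of the family's counts in the 2-month libraries, 98.1 to 99.0% at 12 months and 73.2 to 85.6% at 24 months. Scgb2b20, Scgb1b20, Scgb2b7, Scgb1b24 and Scgb1b7 followed, and these 8 genes held 99.76 to 99.97% in each library.

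Per length, the order of the abundant members differed between ages. Levels are CPM, scaled by TMM, for each kilobase of exon. At 2 months Scgb1b2 was highest, with 188681 ± 30659, followed by Scgb2b2 with 98298 ± 20956 and Scgb2b24 with 88911 ± 13240, which differed by less than their spread. At 12 months Scgb1b2 had 161613 ± 24311, Scgb2b2 78578 ± 11660 and Scgb2b24 39954 ± 7654 on the same scale, further apart than their SDs. At 24 months Scgb2b24 with 95269 ± 23192 and Scgb1b2 with 90946 ± 25916 differed by less than their spread, and Scgb2b2 had 40265 ± 9624. Pair 20 came next at 24 months, with 20761 ± 11533 for Scgb1b20 and 19229 ± 11163 for Scgb2b20. At 12 months the same genes had 1253 ± 761 and 982 ± 601, below Scgb1b24 with 2106 ± 413. The gene models of Scgb1b24 and Scgb1b29 hold 279 and 282 bases, shorter than those of the other alpha chains. This bears on their counts and their values per length, and its effect was not tested.

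Of the 34 members, 24 had at least 10 counts in some library, and the same 24 passed the filter on low counts. The other 10 reached at most 5 counts in any library. Among those, Scgb3a1 and Scgb1b15 had 0 counts in every library, Scgb1a1 had 3 counts and Scgb3a2 1 count in 1 library each, and Scgb1c1 had 5 counts in 1 library. Of the 24, 5 (Scgb2b3, Scgb1b11, Scgb1b12, Scgb1b18 and Scgb2b21) passed the filter only with the 24-month libraries, in which they were high. Their differences between 24 months and the other ages are therefore given without a test, and the tallies of tested members are a description. Between 12 and 2 months 15 of the 24 tested members were lower and 0 higher, where 2.52% of all tested genes were lower and 5.41% higher (edgeR quasi-likelihood F test, Benjamini-Hochberg adjusted p under 0.05). At an unadjusted p under 0.05, where 13% of all genes were higher, and with DESeq2 at the adjusted threshold, 0 members were higher as well. Between 24 and 2 months 2 were higher and 3 lower, against 9.82% higher and 7.56% lower of all genes. The 2 higher were Scgb1b3 and Scgb2b3, and for Scgb2b3 this comparison is no test. Between 24 and 12 months 17 were higher and 1 lower, against 2.79% higher and 1.6% lower of all genes. The 17 include Scgb1b11, Scgb1b12 and Scgb1b18, for which this comparison is no test. Over the 24 members, the 5 named above included, the median log2 fold change was -2.75 for 12 against 2 months. It was 1.002 for 24 against 2 months and 4.20 for 24 against 12 months. That of all tested genes was 0.01, 0.01 and -0.02. Comparisons share libraries. In 14 members, Scgb1b18 among them, the level was lower at 12 than at 2 months and higher at 24 than at 12 months. These 14 were not called between 24 and 2 months. Leaving out 1 library moved the 15 lower members at 12 months by over 1.5 times in 2 cases, to 8 without 2-month replicate 3 and to 9 without 12-month replicate 2. The 2 higher members for 24 against 2 months became 5 with library totals alone, 13 without the filter on low counts, and 1 without any 1 of the 2-month libraries or 24-month replicate 2. When the 3 libraries with the most Bpifa2 were left out, 6 members were lower for 12 against 2 months and 10 higher for 24 against 12 months. In whole tissue, fewer cells that make a transcript and less transcript in each cell cannot be told apart.

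**Figure D1:**
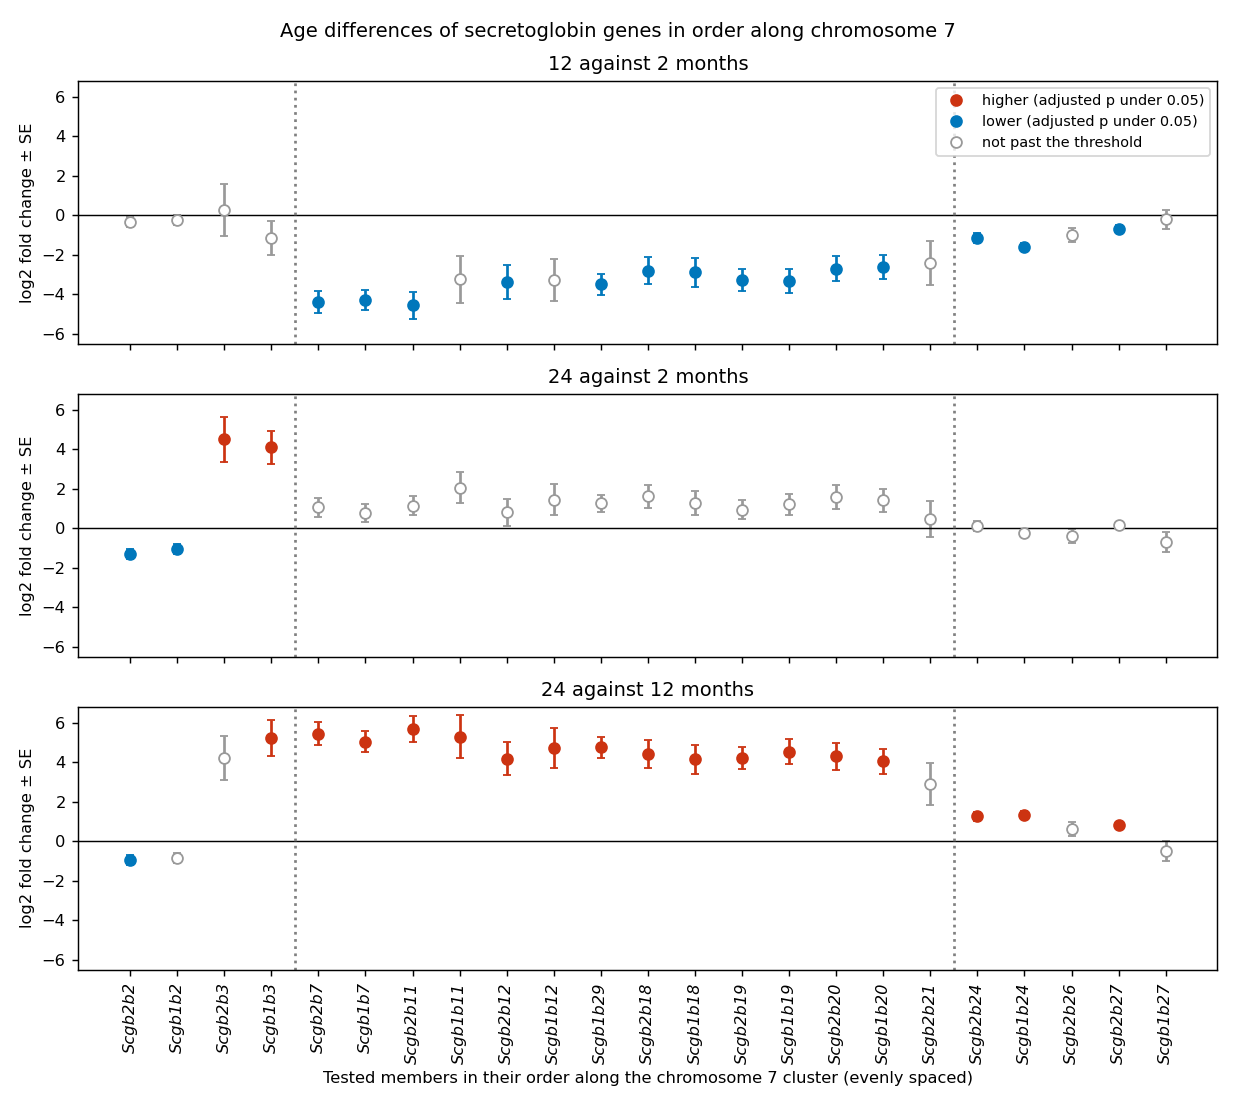
Log2 fold change with its standard error (vertical axis) of the 23 tested Scgb1b and Scgb2b genes in their order along the chromosome 7 cluster (horizontal axis), for 3 age comparisons; dotted lines part the proximal, middle and distal stretches, and filled points passed the adjusted threshold of 0.05. The 14 tested genes of the middle stretch lie between -4.55 and -2.43 for 12 against 2 months and between 2.89 and 5.69 for 24 against 12 months. Scgb2b3, Scgb1b11, Scgb1b12, Scgb1b18 and Scgb2b21 passed the filter only with the 24-month libraries. Their points in comparisons with 24 months are no test, filled or not. The limits of the stretches were set with the values known.

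The 3 stretches took different courses. The middle stretch held 1.01, 0.314 and 1.37% of all counts in the 2-month libraries, 0.210, 0.0665 and 0.110% in the 12-month libraries, and 2.21, 4.51 and 1.54% in the 24-month libraries. In these shares, which are not scaled by TMM, its 12-month libraries were all below the 2-month ones, and its 24-month libraries all above them. Scaled by TMM, 2 and 24 months overlapped in its abundant genes Scgb2b7, Scgb1b7, Scgb2b20 and Scgb1b20. Scgb2b20, for example, had 5590 CPM in 2-month replicate 3 and 4296 CPM in 24-month replicate 3. The distal stretch held 3.97, 3.81 and 4.78% in the 2-month libraries, 2.498, 1.93 and 2.46% in the 12-month libraries, and 5.18, 6.61 and 4.52% in the 24-month libraries, so that 12 months was lowest and the other 2 ages overlapped. The proximal stretch held 11.1, 13.3 and 11.2% in the 2-month libraries, 12.6, 10.99 and 13.2% in the 12-month libraries, and 7.48, 6.48 and 5.66% in the 24-month libraries, so that 24 months was lowest and the other 2 ages overlapped. No test was run on these shares, since the limits of the stretches were set with the values known.

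**Figure D2:**
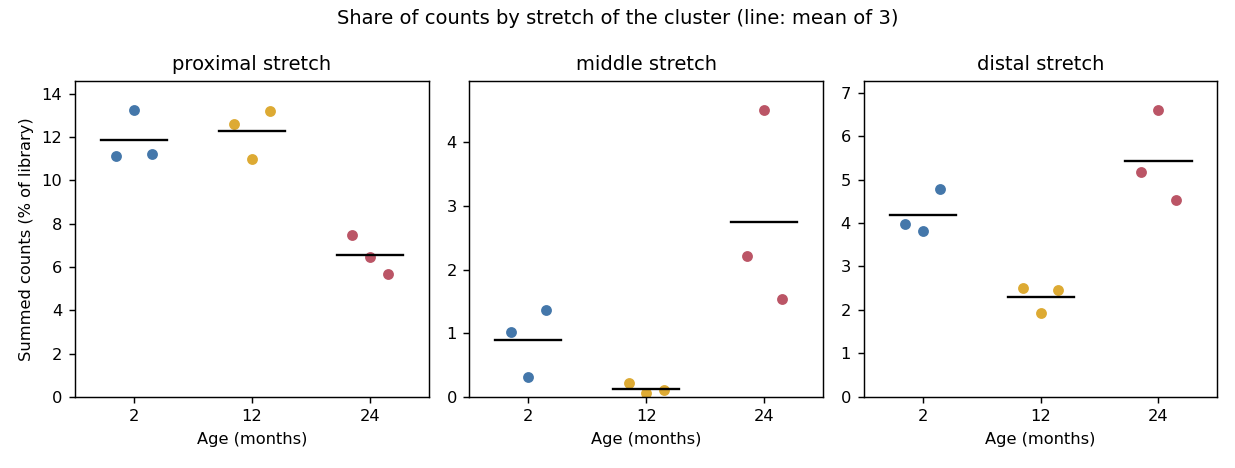
Summed counts of the members of each stretch as a percentage of all counts, not scaled by TMM (vertical axis, from 0), in each library (points) by age in months (horizontal axis), with the mean of 3 libraries as a line. The middle stretch averages 0.900% at 2 months, 0.129% at 12 months and 2.75% at 24 months, and the proximal stretch 11.9, 12.3 and 6.54%.

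In the middle stretch, both partners of the 2 abundant pairs, 7 and 20, were lower at 12 months than at either other age. Scgb2b7, a beta-gamma chain gene, had 3319, 1551 and 4002 CPM, scaled by TMM, at 2 months, 219, 58.7 and 150 CPM at 12 months, and 4296, 10446 and 3819 CPM at 24 months. The 12-month libraries lay far below all others, and 2 and 24 months overlapped. Its log2 fold change was -4.38 (SE 0.56, adjusted p 0.00103) for 12 against 2 months, 1.06 (SE 0.49, adjusted p 0.157) for 24 against 2 months and 5.44 (SE 0.59, adjusted p 0.000383) for 24 against 12 months. Its partner Scgb1b7, an alpha chain gene, had 598, 327 and 887 CPM at 2 months, 44.3, 15.8 and 32.8 CPM at 12 months, and 642, 1747 and 681 CPM at 24 months. These are log2 fold changes of -4.29 (SE 0.51, adjusted p 0.000755), 0.76 (SE 0.45, adjusted p 0.273) and 5.05 (SE 0.53, adjusted p 0.000325) in the same order of comparisons. In both genes 12-month replicate 2 was the lowest library and 24-month replicate 2 the highest, and both are libraries with much Bpifa2. Without the 3 libraries with the most Bpifa2, Scgb2b7 differed by -3.72 for 12 against 2 months (adjusted p 0.00756) and 4.47 for 24 against 12 months (adjusted p 0.00249), and Scgb1b7 by -3.59 (adjusted p 0.00256) and 4.11 (adjusted p 0.000955). All 4 of these calls held under every alternative at the 0.05 threshold.

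Pair 20 was the more abundant pair of the middle stretch at 24 months. Scgb2b20 had 3463, 959 and 5590 CPM at 2 months, 856, 239 and 445 CPM at 12 months, and 9905, 15969 and 4296 CPM at 24 months. Scgb1b20 had 3174, 1071 and 5508 CPM at 2 months, 883, 261 and 438 CPM at 12 months, and 8661, 13635 and 3925 CPM at 24 months. In both genes the 12-month libraries lay below all others, while 2 and 24 months overlapped. For 12 against 2 months the log2 fold change was -2.70 (SE 0.64, adjusted p 0.0235) for Scgb2b20 and -2.62 (SE 0.60, adjusted p 0.0213) for Scgb1b20. Between 24 and 12 months it was 4.29 (SE 0.68) and 4.05 (SE 0.64), with an adjusted p of 0.00454 for both. For 24 against 2 months it was 1.59 (SE 0.61, adjusted p 0.0953) and 1.43 (SE 0.58, adjusted p 0.113). The 12-month decrease of Scgb2b20 missed the threshold without any 1 of 2-month replicates 1 and 3 and 12-month replicates 2 and 3 (adjusted p 0.05003 to 0.103). That of Scgb1b20 missed it without any 1 of 2-month replicate 3 and 12-month replicates 2 and 3 (adjusted p 0.0528 to 0.0964). Without the 3 libraries with the most Bpifa2 it was -1.76 (adjusted p 0.282) for Scgb2b20 and -1.68 (adjusted p 0.266) for Scgb1b20, and the difference between 24 and 12 months still passed, at 3.45 (adjusted p 0.0474) for Scgb2b20 and 3.26 (adjusted p 0.0447) for Scgb1b20.

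**Figure D3:**
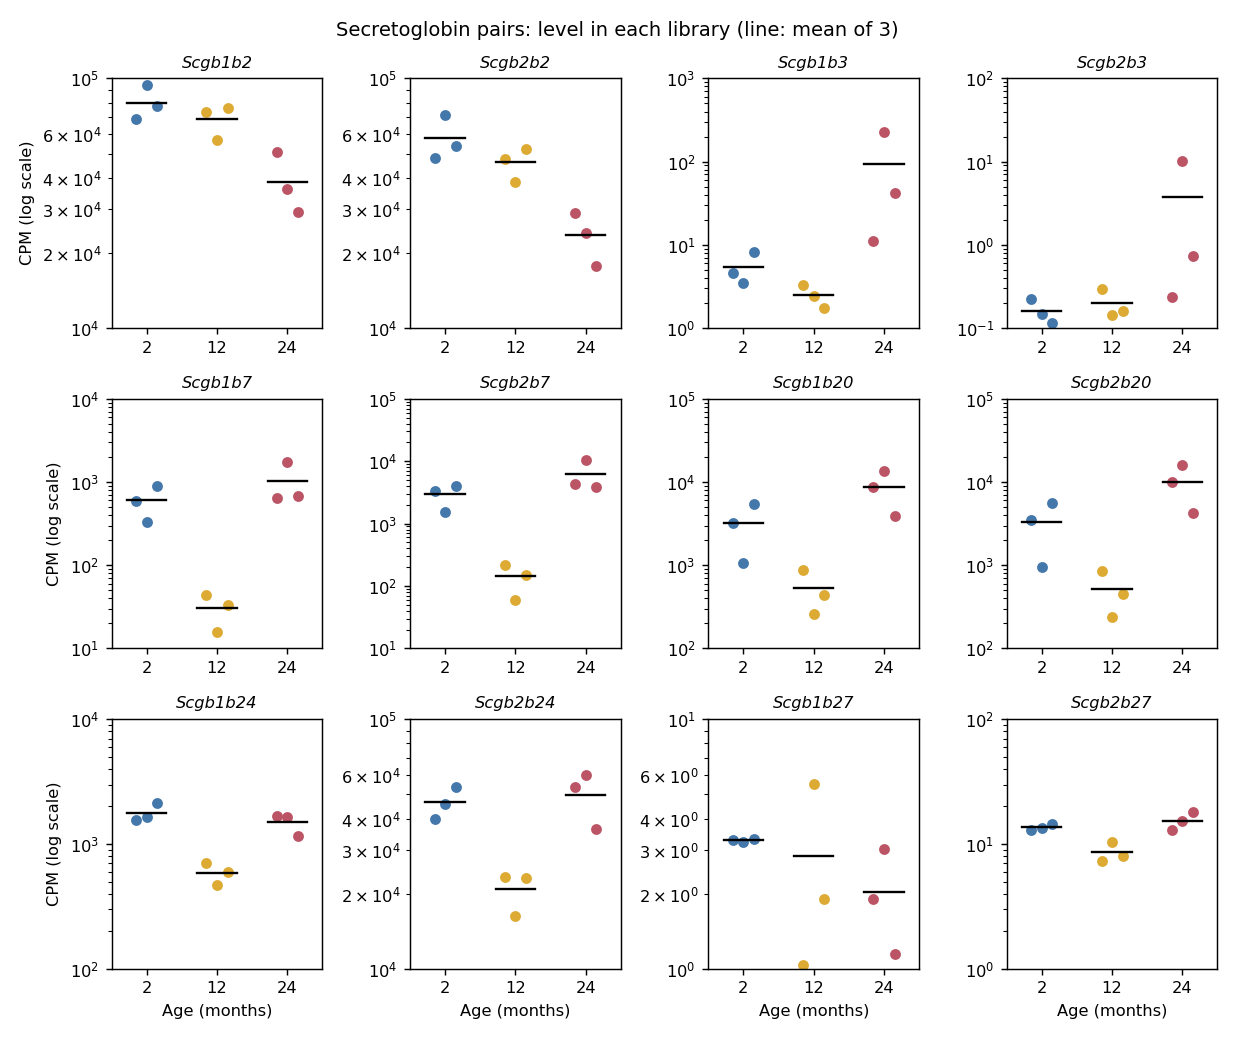
Level in CPM (vertical axis, log scale, scaled by TMM) of 12 members that form 6 pairs in each library (points) by age in months (horizontal axis), with the mean of 3 libraries as a line. Both partners of pairs 7, 20 and 24 have their 12-month libraries below all others, pair 2 its 24-month libraries below all others, and pair 3 its highest library at 24 months.

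The other 10 tested genes of the middle stretch were rare, and all had their highest library at 24 months. Scgb1b19 was the most abundant of them, with 9.24, 4.17 and 17.6 CPM at 2 months, 1.99, 0.695 and 0.432 CPM at 12 months, and 17.9, 40.3 and 13.4 CPM at 24 months. Its 12-month libraries did not overlap those of either other age. Scgb1b29 had 6.15 ± 2.75 CPM at 2 months, 0.552 ± 0.360 CPM at 12 months and 14.7 ± 8.62 CPM at 24 months. Scgb2b18 had 2.58 ± 1.73, 0.372 ± 0.344 and 7.91 ± 4.86 CPM at these ages, and Scgb2b19 had 3.38 ± 1.61, 0.351 ± 0.226 and 6.50 ± 4.06 CPM. Scgb2b11 had 1.27 ± 0.707, 0.0521 ± 0.0354 and 2.79 ± 1.69 CPM, and Scgb1b18 had 0.780 ± 0.512, 0.105 ± 0.0805 and 1.88 ± 1.01 CPM (SD, n = 3 libraries each). The remaining 4, Scgb1b11, Scgb2b12, Scgb1b12 and Scgb2b21, reached at most 48, 123, 53 and 31 counts in a library and 0 counts in at least 1 library of 12 months. The adjusted p for 24 against 12 months was 0.000525 for Scgb1b29, 0.000677 for Scgb2b11, 0.00188 for Scgb2b19 and 0.00193 for Scgb1b19. It was 0.00454 for Scgb2b18 and 0.0159 for Scgb2b12. For Scgb1b11, Scgb1b12, Scgb1b18 and Scgb2b21 that comparison is no test, as they passed the filter only with the 24-month libraries.

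For 12 against 2 months, 7 of these 10 rare genes were lower, where 2.52% of all tested genes were: Scgb2b11 by -4.55 on the log2 scale (adjusted p 0.00265), Scgb1b29 by -3.49 (adjusted p 0.00291), Scgb2b19 by -3.28 (adjusted p 0.00559), Scgb1b19 by -3.32 (adjusted p 0.00772), Scgb2b18 by -2.80 (adjusted p 0.0304), Scgb2b12 by -3.37 (adjusted p 0.0310) and Scgb1b18 by -2.89 (adjusted p 0.0344). With limma voom none of the 7 passed (adjusted p 0.0539 to 0.160). The calls of Scgb2b18, Scgb2b12 and Scgb1b18 missed the threshold without 2-month replicate 1, 2-month replicate 3 or 12-month replicate 2 (adjusted p 0.0533 to 0.140). Scgb2b12 and Scgb1b18 also missed it without 12-month replicate 1 (adjusted p 0.0650 and 0.0565), and Scgb2b18 and Scgb1b18 without 12-month replicate 3 (adjusted p 0.0720 and 0.0644). For 24 against 12 months Scgb2b12 missed it without 24-month replicate 2 (adjusted p 0.0590) and, as did Scgb2b18, with limma voom (adjusted p 0.0698 and 0.0512). Without the 3 libraries with the most Bpifa2, Scgb2b11, Scgb1b29 and Scgb2b19 still passed for 12 against 2 months (adjusted p 0.0369, 0.00891 and 0.0220), and they and Scgb1b19 for 24 against 12 months (adjusted p 0.00136 to 0.0239).

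How far the rare genes stand for transcripts of their own is limited by shared sequence. Of all 100-base windows of its transcripts, the length of 1 sequenced read, Scgb1b29 had 0% that occur in no other gene and shared all of them with Scgb1b7. Scgb1b7 in turn had 42.8% of its own and Scgb1b20 58.4%, against 89.0% for Scgb2b7 and 78.3% for Scgb2b20. Scgb1b11 and Scgb1b18 had 36.7 and 33.3%, Scgb2b11 and Scgb2b18 67.5% each, Scgb2b12 and Scgb2b19 68.0 and 68.6%, Scgb1b19 and Scgb1b12 79.6 and 84.3%, and Scgb2b21 100.0%. The handling of reads that match several genes is not given in the sources used here, so the rare genes of the middle stretch and the split between Scgb1b7 and Scgb1b29 are uncertain. For each 1000 counts of Scgb1b7 and Scgb1b20 together, Scgb1b29 had 0.664 to 2.62 counts and Scgb1b19 0.917 to 2.98 counts across the 9 libraries. For each 1000 counts of Scgb2b7 and Scgb2b20 together, Scgb2b11 had 0.0686 to 0.257 counts and Scgb2b18 0.316 to 0.714 counts. Between 24 and 2 months 0 of the 14 tested genes of the middle stretch passed the threshold, and their log2 fold changes were all positive, 0.46 to 2.06. At an unadjusted p under 0.05, 8 of the 14 were higher, where 17.1% of all tested genes were. The 14 include Scgb1b11, Scgb1b12, Scgb1b18 and Scgb2b21, for which this comparison is no test, and Scgb1b11 is among the 8. DESeq2, limma voom and RLE scaling called 0. Scaling by library totals alone, which moved the median of all genes to 0.31, called 3 higher, the fit without a filter on low counts 11, the fit of the 2 ages alone 1, and the fit without 12-month replicate 2 called 1.

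The abundant pair of the distal stretch was lower at 12 months as well, with smaller fold changes than the called genes of the middle stretch. Scgb2b24 had 39890, 45910 and 53702 CPM at 2 months, 23228, 16274 and 23187 CPM at 12 months, and 53489, 59701 and 36287 CPM at 24 months. Its partner Scgb1b24 had 1566, 1659 and 2127 CPM at 2 months, 699, 468 and 595 CPM at 12 months, and 1681, 1639 and 1168 CPM at 24 months. In both genes the 12-month libraries lay below all others, and 2 and 24 months overlapped. For 12 against 2 months the log2 fold change was -1.15 (SE 0.25, adjusted p 0.0158) for Scgb2b24 and -1.60 (SE 0.20, adjusted p 0.00091) for Scgb1b24. Between 24 and 12 months it was 1.25 (SE 0.25, adjusted p 0.0151) and 1.35 (SE 0.20, adjusted p 0.00277), and for 24 against 2 months 0.10 (SE 0.25, adjusted p 0.826) and -0.25 (SE 0.20, adjusted p 0.415). Both calls of Scgb2b24 missed the threshold without 12-month replicate 2 (adjusted p 0.0861 and 0.0679). The first also missed it without 2-month replicate 3 (adjusted p 0.0719), and the second without 12-month replicate 1 or 24-month replicate 2 (adjusted p 0.0507 and 0.0690). Without the 3 libraries with the most Bpifa2 neither gene passed (adjusted p 0.0553 to 0.487). All windows of both genes are unique.

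The rest of the distal stretch was rare in this gland. Scgb1b27, Scgb2b26 and Scgb2b27 encode the androgen-binding protein subunits known from mouse saliva. Scgb2b27 had 13.1, 13.3 and 14.5 CPM at 2 months, 7.27, 10.5 and 7.998 CPM at 12 months, and 12.9, 15.2 and 18.1 CPM at 24 months. Its 12-month libraries lay below all others. It differed by -0.67 (SE 0.15, adjusted p 0.0219) for 12 against 2 months and 0.84 (SE 0.15, adjusted p 0.00952) for 24 against 12 months. With scaling by library totals alone, which moved the median of all genes to 0.31 for 12 against 2 months, neither difference passed (-0.35, adjusted p 0.289, and 0.85, adjusted p 0.0695). The first also missed the threshold without 2-month replicate 2, 2-month replicate 3 or 12-month replicate 1 (adjusted p 0.0684 to 0.0818), and without the 3 libraries with the most Bpifa2 (-0.79, adjusted p 0.110). Scgb1b27 had 3.29, 3.23 and 3.31 CPM at 2 months, 1.04, 5.52 and 1.91 CPM at 12 months, and 1.91, 3.03 and 1.15 CPM at 24 months, and passed in none of the 3 comparisons (adjusted p 0.378 to 0.850). Its highest library at 12 and at 24 months was replicate 2, the one with the most Bpifa2 at that age. Scgb2b26 had 1.25 ± 0.0631, 0.625 ± 0.195 and 0.965 ± 0.298 CPM at 2, 12 and 24 months and passed in none (adjusted p 0.118 to 0.510). Scgb1b30 had at most 2 counts.

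The most abundant pair of the family, in the proximal stretch, was lower at 24 months. Scgb1b2 had 68565, 94139 and 77298 CPM at 2 months, 73061, 56726 and 75785 CPM at 12 months, and 50636, 35901 and 29148 CPM at 24 months. Scgb2b2 had 47914, 71413 and 53480 CPM at 2 months, 47482, 38611 and 52048 CPM at 12 months, and 29011, 24018 and 17756 CPM at 24 months. In both genes the 24-month libraries lay below all others, and 2 and 12 months overlapped. For 24 against 2 months the log2 fold change was -1.05 (SE 0.26, adjusted p 0.0163) for Scgb1b2 and -1.29 (SE 0.25, adjusted p 0.00581) for Scgb2b2. Between 24 and 12 months it was -0.83 (SE 0.26, adjusted p 0.092) and -0.96 (SE 0.25, adjusted p 0.0486), and for 12 against 2 months -0.22 (SE 0.25, adjusted p 0.660) and -0.32 (SE 0.25, adjusted p 0.480). The call of Scgb1b2 missed the threshold without 2-month replicate 2 or 3 or 24-month replicate 2 (adjusted p 0.0505 to 0.0720), and that of Scgb2b2 for 24 against 12 months without any library except 2-month replicate 2 and 24-month replicate 1 (adjusted p 0.0553 to 0.171). Without the 3 libraries with the most Bpifa2 the differences between 24 and 2 months were -1.03 (adjusted p 0.308) and -1.35 (adjusted p 0.166).

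In pair 3, which lies beside pair 2, Scgb1b3 was higher at 24 months, by far the most in 1 library. Scgb1b3 had 186, 118 and 289 counts at 2 months, 145, 119 and 76 counts at 12 months, and 421, 9875 and 2066 counts at 24 months. Scgb2b3 had 9, 5 and 4 counts at 2 months, 13, 7 and 7 counts at 12 months, and 9, 448 and 36 counts at 24 months. All 3 libraries of 24 months were above the rest for Scgb1b3, and 24-month replicate 2 was far above every other library for both genes. Scgb1b3 differed by 4.10 on the log2 scale (SE 0.84, adjusted p 0.00727) for 24 against 2 months and 5.23 (SE 0.89, adjusted p 0.00691) for 24 against 12 months. Without 24-month replicate 2, which had 8709 Bpifa2 counts, its values were 2.28 (adjusted p 0.0117) and 3.41 (adjusted p 0.00405). With limma voom neither passed (adjusted p 0.0532 and 0.0911). Scgb2b3 passed the filter only with the 24-month libraries, and its difference from the other ages was not tested. Of its windows Scgb1b3 had 95.3% unique, and Scgb2b3 100.0%.

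Scgb2a2, on chromosome 19 (9847562 to 9852808), was the one tested member outside the cluster. It had 296, 375 and 273 CPM at 2 months, 38.1, 17.6 and 37.1 CPM at 12 months, and 39.0, 26.5 and 16.1 CPM at 24 months. The 2-month libraries lay far above all others, and 12 and 24 months overlapped. Its log2 fold change was -3.35 (SE 0.34, adjusted p 0.000461) for 12 against 2 months, -3.53 (SE 0.34, adjusted p 0.000118) for 24 against 2 months and -0.19 (SE 0.31, adjusted p 0.804) for 24 against 12 months. The fitted level was 10.2-fold lower at 12 months and 11.6-fold lower at 24 months than at 2 months. Both calls held under every alternative, and without the 3 libraries with the most Bpifa2 they were -3.16 (adjusted p 0.00756) and -3.61 (adjusted p 0.00267). It was the one member that was lower at both later ages than at 2 months and not called between them.

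The dimers need an alpha and a beta-gamma chain, so the count of each Scgb1b gene was set against its Scgb2b partner. Of 12 pairs, 10 had both partners tested. Pairs 3, 11, 12 and 18 are among the 10 only through the 24-month libraries, in which Scgb2b3, Scgb1b11, Scgb1b12 and Scgb1b18 were high. For these pairs the comparison of ratios is no test, and the tally over 10 pairs is a description. The log2 ratio (0.5 added to each count) was compared between the 3 ages by exact permutation of the libraries (two-sided, over all arrangements), for which the smallest possible p is 0.00357. In 0 of 10 pairs did the ratio differ past an adjusted p of 0.05, and at an unadjusted p under 0.05 it was 3 of 10. In that exact permutation test these were pair 24 (p = 0.0143), pair 7 (p = 0.0321) and pair 2 (p = 0.0393), with an adjusted p of 0.131 each. For pair 2 there were 140 ± 6.96, 149 ± 4.44 and 163 ± 12.6 counts of Scgb1b2 for each 100 of Scgb2b2 at 2, 12 and 24 months. Pair 7 had 20.4 ± 2.15, 23.0 ± 3.50 and 16.5 ± 1.45 counts of Scgb1b7 for each 100 of Scgb2b7. Pair 24 had 3.83 ± 0.191, 2.82 ± 0.226 and 3.04 ± 0.254 counts of Scgb1b24 for each 100 of Scgb2b24 (SD, n = 3 libraries each). Leaving out 24-month replicate 2 brought 2 pairs past the adjusted threshold, and leaving out 12-month replicate 1 brought 1.

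The partners of pair 20 stayed nearest to equal counts, with 101 ± 10.2 counts of Scgb1b20 for each 100 of Scgb2b20 at 2 months, 104 ± 5.47 at 12 months and 88.1 ± 3.04 at 24 months (adjusted p 0.164). Per length the ratio of the 1b to the 2b partner was 1.06 to 1.39 across the libraries in pair 20, 1.82 to 2.41 in pair 2 and 0.335 to 0.603 in pair 7. In pair 24 it was 0.0481 to 0.0742. The gene model of Scgb2b7 holds 938 bases of exon, against 523 for Scgb2b20. Dividing by the longer length gives a higher ratio for pair 7. The short model of Scgb1b24, with 279 bases, bears on the counts and the ratio of pair 24. Among the rare pairs, the mean log2 ratio at 2, 12 and 24 months was 4.91, 3.59 and 5.25 in pair 3 and -2.05, -1.93 and -3.01 in pair 27. It was -3.58, -1.30 and -1.96 in pair 11, -1.70, -1.45 and -1.25 in pair 12, -1.73, -1.71 and -2.01 in pair 18, and 1.48, 1.53 and 1.89 in pair 19, where 12-month counts of 0 to 88 leave wide spreads. In 12-month replicate 2 both partners of pair 12 had 0 counts, so that library's log2 ratio of 0 comes from the added 0.5 alone. The summed alpha chain counts were 7.40 ± 0.359% of all counts at 2 months, 7.46 ± 0.721% at 12 months and 5.25 ± 0.890% at 24 months. The summed beta-gamma chain counts were 9.55 ± 0.474, 7.23 ± 0.771 and 9.48 ± 2.21%.

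**Figure D4:**
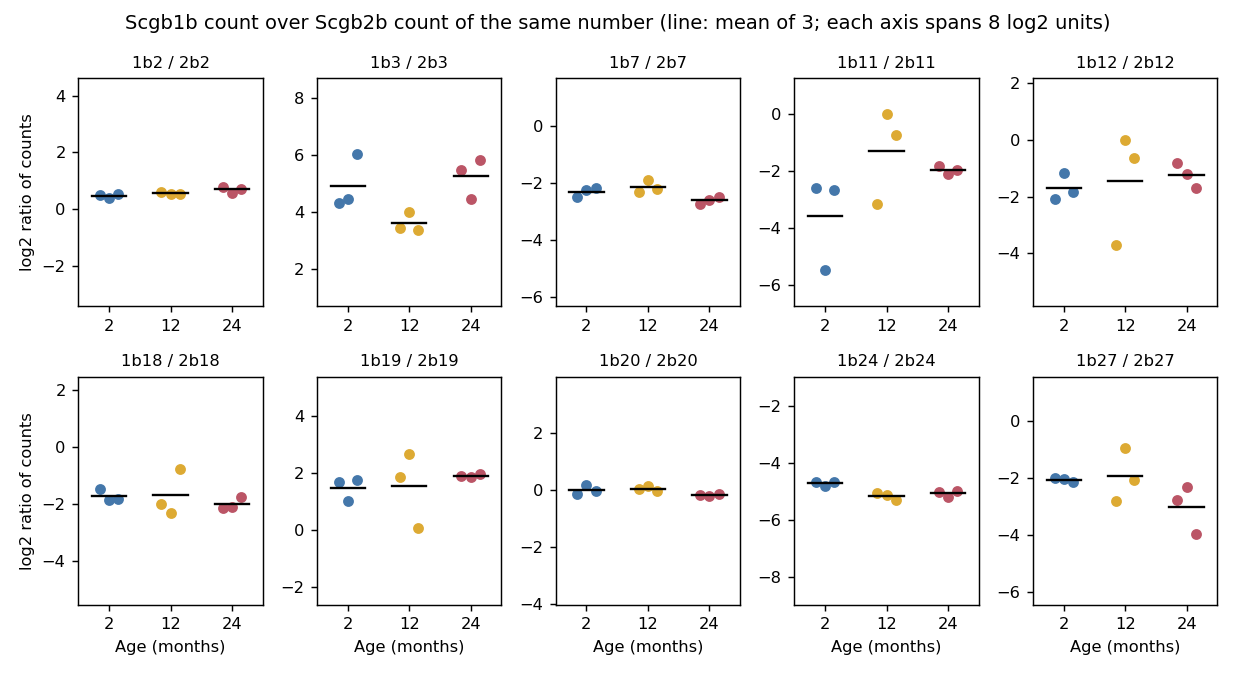
Log2 ratio of the Scgb1b count to the Scgb2b count of the same number (vertical axis, 8 log2 units in each panel) in each library (points) by age in months (horizontal axis), with the mean of 3 libraries as a line. The age means lie between 0.48 and 0.70 in pair 2 and between -5.15 and -4.71 in pair 24, while the libraries of rare pairs such as 11 scatter more widely.

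The proportions between genes of the same chain in different parts of the cluster also differed between ages. For each 100 counts of Scgb2b2 there were 83.3, 64.3 and 100.4 counts of Scgb2b24 in the 2-month libraries, 48.9, 42.1 and 44.5 in the 12-month libraries, and 184, 249 and 204 in the 24-month libraries, with no overlap between ages. For each 100 counts of Scgb1b2 there were 2.28, 1.76 and 2.75 counts of Scgb1b24 in the 2-month libraries, 0.956, 0.826 and 0.786 in the 12-month libraries, and 3.32, 4.57 and 4.01 in the 24-month libraries, again with no overlap. Within the middle stretch, each 100 counts of Scgb2b20 came with 95.9, 162 and 71.6 counts of Scgb2b7 in the 2-month libraries, 25.6, 24.6 and 33.7 in the 12-month libraries, and 43.4, 65.4 and 88.9 in the 24-month libraries. These ratios were chosen with the values known and were not tested.

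The motifs marked in the promoters above were counted over the family. RefSeq gave a 300-base promoter window, 250 bases before the start and 50 from it on, for 25 of the 34 members. TGTTCT, searched on both strands, was in 13 of these 25, in 10 of the 14 Scgb2b genes and in 3 of the 8 Scgb1b genes, against 19.0% of all 32851 windows. TATAAA was in 15 of the 25, against 13.6%. In Scgb2b27, Scgb1b27 and Scgb1b30 the match lies after the gene start, at positions 27, 43 and 39, not before it. In the 4 printed Scgb2b promoters it is on the opposite strand. The longest run with TGTTCT in it that the 4 printed Scgb2b promoters share is TGTTTGTTCTTCAGA on chromosome 7. It was in 8 of the 25 and, with those 8 counted, in 13 of all 32851 windows, on either strand. In each of the 8 it overlaps the TGTTCT match. Besides those 4 it occurred in Scgb2b11, Scgb2b15, Scgb2b17 and Scgb2b18, and all 8 carry it at positions -197 to -183 from the start. The run was taken from the printed sequences, so neither its place in those 4 nor its rarity among all windows is a finding. The windows of Scgb2b7 and Scgb2b20 were 96.7% identical, those of Scgb2b24 and Scgb2b2 81.8%, and those of Scgb2b7 and Scgb2b2 78.6%. Scgb2b2 holds 2 matches of TGTTCT, at -212 and -186, and Scgb2b7 and Scgb2b24 hold 1 each. The window of Scgb2b2 lies before its RefSeq start and not before its alternative first exon. For 12 against 2 months the log2 fold change was -0.32 for Scgb2b2, -4.38 for Scgb2b7 and -1.15 for Scgb2b24. Whether the motif bears on these values was not tested. A match of letters is a description and does not show a bound site.

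Receptors and transcription factors reported to act on secretoglobin genes in some tissue were a list of 21 genes, of which 19 were tested. For 12 against 2 months 0 passed the adjusted threshold (edgeR, with 7.93% of all tested genes called in either direction), with DESeq2 2 were lower, and at an unadjusted p under 0.05 2 were higher and 4 lower, against 13% and 10.2% of all genes. For 24 against 2 months 1 was higher, the estrogen receptor gene Esr1 (0.504 CPM at 24 months and 0.0951 CPM at 2 months), and 1 lower, the thyroid hormone receptor gene Thrb (26.3 and 34.1 CPM), against 17.4% of all genes. Between 24 and 12 months 1 was higher, Stat5b, a transducer of prolactin signals (26.7 CPM at 24 months and 18.5 CPM at 12 months), against 4.39% of all genes. The list's median log2 fold change was -0.10 for 12 against 2 months, 0.08 for 24 against 2 months and 0.13 for 24 against 12 months. The call of Esr1 was lost without 2-month replicate 2 or any 1 of the 24-month libraries, that of Thrb without 2-month replicate 1 or 2 or 24-month replicate 2 or 3, and that of Stat5b without 2-month replicate 3, 12-month replicate 1 or 3, or 24-month replicate 2.

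Among 19 other secreted products of lacrimal and salivary glands, 1 was higher and 2 lower for 12 against 2 months, 3 higher and 1 lower for 24 against 2 months, and 3 higher and 0 lower for 24 against 12 months. Of all tested genes 5.41% were higher and 2.52% lower in the first comparison, 9.82% and 7.56% in the second, and 2.79% and 1.6% in the third. Tcn2, which encodes the cobalamin carrier transcobalamin, was lower at 12 months (95.3 CPM, against 149 CPM at 2 months, adjusted p 0.0499) and higher at 24 months (303 CPM, adjusted p 0.00401 against 2 months and 0.000486 against 12 months). Lpo, the gene of the antibacterial enzyme lactoperoxidase, was lower at 12 months (1234 CPM, against 2233 CPM at 2 months, adjusted p 0.0448) and higher at 24 than at 12 months (2504 CPM, adjusted p 0.0310). The odorant binding protein gene Obp1b was higher at 24 than at 12 months (50563 CPM and 21862 CPM, adjusted p 0.00842). Esp16, of the exocrine gland-secreting peptides, was higher at 12 months (3544 CPM, against 303 CPM at 2 months, adjusted p 0.0479). For 24 against 2 months Cst3 and the lysozyme gene Lyz1 were higher and Esp18 lower, with log2 fold changes of 0.53, 1.62 and -0.80. The list's median log2 fold change was -0.13, 0.02 and -0.01 in the 3 comparisons. For 24 against 12 months DESeq2 called 1 lower, and at an unadjusted p under 0.05 4 were higher and 2 lower, against 9.96% and 8.93% of all genes. The 1 higher product for 12 against 2 months became 0 without any library except 2-month replicate 3 and 24-month replicate 3, and the 2 lower ones became 0 or 1 without any library except 24-month replicates 1 and 3. When the 3 libraries with the most Bpifa2 were left out, 0 products passed for 12 against 2 months and for 24 against 2 months, and 1 was higher for 24 against 12 months.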

How the data were processed

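Messenger RNA of whole lacrimal glands was sequenced as 100-base paired reads, per the labels' protocols. The submitters' processing notes name cutadapt, FastQC, STAR, HTSeq, DESeq2 and the mouse build GRCm38. For versions, annotation release, strand setting and reads with several matches, the sources used here give nothing. The authors deposited raw counts per gene and a log2 table. The deposited log2 values equal the log2 of a count divided by a library factor, plus 1, within 1e-06 for 100.0% of values, and were not used in tests.

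Gene symbols, types and positions came from GENCODE M21. Counts were tested with edgeR 4.0.16 (R 4.3.3): TMM scaling, filterByExpr with a minimum of 10 counts, 1 quasi-likelihood fit of all 9 libraries with age as the term, and Benjamini-Hochberg adjustment over 14944 genes. A gene was called at an adjusted p under 0.05. There were 6 residual degrees of freedom and a common coefficient of variation of 21.2%. Libraries held 40516863 to 42573877 counts, so the spread between libraries limits precision for the abundant members. Partner ratios were compared with exact permutation tests, adjusted over 10 pairs. Sequence windows of 100 bases and promoters were searched with Python 3.11.15, numpy 2.4.6, pandas 2.3.3 and Biopython 1.88, and figures drawn with matplotlib 3.10.9. The fitting code was tested on simulated counts.

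The alternatives were RLE scaling, library totals alone, no filter, DESeq2 1.42.0, limma 3.58.1 voom with sample weights, a replicate block, a fit of the 2 ages compared alone, leaving out each library in turn, the 3 libraries with the most Bpifa2 left out, a threshold of 0.01, other pseudocounts and another denominator. Every member with at least 10 counts in 1 library was named, and other genes came only from the lists, of which 1 gene is not reported here. The members and lists were chosen with earlier results of these data known.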

Additional observations from a re-analysis of the deposited data

Results flagged for a closer look

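Counts also lay in rows of the family that GENCODE M21 annotates as pseudogenes and that were left out of the members, and 2 of these stood out. Scgb2b1 had 23283, 30613 and 20059 counts in the 2-month libraries, 18391, 19647 and 26293 in the 12-month libraries, and 14981, 12516 and 15205 in the 24-month libraries, with a median of 19647 over the 9 libraries. The 24-month libraries were the lowest, as for Scgb1b2 and Scgb2b2 close by. RefSeq lists this gene as protein-coding. Scgb2b28-ps had 594, 523 and 250 counts in the 2-month libraries, 74, 5 and 29 in the 12-month libraries, and 527, 1628 and 1548 in the 24-month libraries, with a median of 523. Its 12-month libraries were below all others. No test was run on either.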

How the results depend on the processing

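No called difference of a member changed direction: of 38 called differences, all 642 values refitted under the alternatives kept their sign, and 545 also stayed past the threshold, while 97 did not. The 38 include differences at 24 months of Scgb2b3, Scgb1b11, Scgb1b12 and Scgb1b18, which are no test. At a threshold of 0.01, 24 of the 38 passed. Of the 38, 12 stayed past 0.05 in every refit. The 15 lower members for 12 against 2 months became 8 with limma voom, 9 with the replicate block, 6 without the 3 libraries with the most Bpifa2 and 8 at a threshold of 0.01. The 2 higher for 24 against 2 months became 5 with library totals alone, 13 without the filter, 0 with voom, and 1 with the block, without the Bpifa2 libraries or at 0.01, and the 3 lower became 1 without the Bpifa2 libraries. The 17 higher for 24 against 12 months became 10 without the Bpifa2 libraries. The 1 lower became 2 with library totals, no filter, DESeq2 or voom, and 0 with RLE, the block, only the libraries compared, without the Bpifa2 libraries or at 0.01. Leaving out 1 library at a time gave 0 higher and 8 to 15 lower members for 12 against 2 months, 1 to 3 higher and 2 to 3 lower for 24 against 2 months, and 13 to 18 higher and 0 to 2 lower for 24 against 12 months.

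Of the receptor and transcription factor list, 12 against 2 months had 2 higher with library totals, and 2 lower without the filter or with DESeq2 and 1 with only the libraries compared. For 24 against 2 months the 1 higher was Esr1, for which this comparison is no test. That count became 4 with library totals, 2 without the filter, and 0 with the block, without the Bpifa2 libraries or at 0.01. The 1 lower became 3 without the filter and 0 with library totals, the block, without the Bpifa2 libraries or at 0.01. For 24 against 12 months the 1 higher became 2 with RLE or voom, 3 without the filter or with DESeq2, and 0 with library totals, the block, without the Bpifa2 libraries or at 0.01. Leaving out 1 library gave 0 higher and 0 to 1 lower, 0 to 2 of each, and 0 to 1 higher and 0 lower in the 3 comparisons. Of the secreted products, the 1 higher for 12 against 2 months became 2 with library totals or only the libraries compared, 4 without the filter, 3 with DESeq2, and 0 with voom, the block, without the Bpifa2 libraries or at 0.01. The 2 lower became 4 without the filter or with voom, 5 with DESeq2, and 0 with library totals, the block, without the Bpifa2 libraries or at 0.01. For 24 against 2 months the 3 higher became 6 with library totals or no filter, 5 with DESeq2 and 0 without the Bpifa2 libraries, and the 1 lower became 3 without the filter or with DESeq2, 2 with voom, and 0 with only the libraries compared, without the Bpifa2 libraries or at 0.01. For 24 against 12 months the 3 higher became 1 without the Bpifa2 libraries, and the 0 lower became 3 without the filter and 1 with DESeq2. Leaving out 1 library gave 0 to 1 higher and 0 to 3 lower, 2 to 5 higher and 0 to 2 lower, and 2 to 3 higher and 0 to 2 lower.

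A pseudocount of 5 brought 1 pair ratio past the threshold, and leaving out 1 library 0 to 2. Without the 10 most abundant other genes in the total, the family's share was 37.2% at 2 months, 31.1% at 12 months and 32.2% at 24 months, and leaving out 1 library gave 16.8 to 17.4%, 14.1 to 15.5% and 13.3 to 16.2% of all counts. Replicate numbers did not pair the libraries: same-number correlations of the deviations from the age means were -0.15 to 0.06, and 0 of 9 libraries correlated best with their own number. The pair ratio test was not run without the 3 Bpifa2 libraries, where 2 libraries an age allow no p below the threshold. The causes of these changes were not tested. Members of few counts at 12 months are limited by depth, and near-identical members by shared sequence.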
